A study of Homo sapiens with 12 samples.

Results

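The major histone gene cluster at 6p22 was examined as all peaks whose summit lay in the 1.9 Mb that follow position 26 Mb of chromosome 6 (hg19) in the 10 ChIP-seq peak lists of the series. The window held 1355 of the 1552170 peaks deposited for chromosomes 1 to 22 and X, and 455 of the 380321 peaks with a q of 0.05 or less. The cells were Huh7, a human hepatocellular carcinoma line, edited to carry FLAG on the C-terminus of endogenous VPS72, the subunit of the SRCAP and TIP60/p400 remodelling complexes that binds H2A.Z. The tagged cells grew from colonies that survived blasticidin, and all libraries share this background. In the VPS72 overexpression cells, a lentivirus carrying VPS72-FLAG had been added for 24 h. In the control cells the virus was lenti-HA, an empty vector. FLAG therefore marks endogenous together with lentiviral VPS72 in overexpression cells, and endogenous VPS72 alone in control cells. No cells without the tag were analysed here. A single library was made per condition for input and for each antibody, against FLAG, H3K4me1, H3K27ac, H2A.Z and its acetylated form (H2A.Zac), 12 in all. With 1 library per group nothing measures the spread between cultures, and no difference between conditions was tested. Intervals of shares cover counting error only. Intervals of median height ratios cover only the scatter among regions of 1 pair of libraries, and those regions are no replicates.

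Histones of chromatin made during DNA replication come from short genes without introns, most of which sit at 6p22, where they share the nuclear body in which their RNA is made and processed. The same stretch holds many tRNA genes, which RNA polymerase III reads, and the butyrophilin genes. H2A.Z is a variant of H2A that flanks the starts of active genes. Its acetylated form and H3K27ac mark active promoters and enhancers, while H3K4me1 is typical of enhancers and of the flanks of promoters.

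In the RefSeq gene table of GRCh38.p14, used for names and order alone, the stretch from H1-1 to the last histone gene listed held 53 coding histone genes. They comprised 6 H1, 11 H2A, 14 H2B, 10 H3 and 12 H4 genes, with 9 histone pseudogenes among them. The coding histone genes lay in 3 blocks. The first ran from H1-1 to H4C8 and held 32 genes, the next from H2BC11 to H2AC12 and held 5, and the last from H2BC13 to H2BC17 and held 16. The table listed 47 tRNA genes between the first and the middle block, and 51 between the middle and the last. The butyrophilin genes, 6 of them coding, and coding zinc finger genes, 3 in number, also lay in this stretch. No peak was assigned to a gene, because peak positions were in hg19 and the table was in GRCh38.p14.

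Promoter sequences are shown for the coding histone genes alone, not for the tRNA, butyrophilin or zinc finger genes of the stretch. The sequences below are the 150 bases before the start of the first coding gene of each class, in chromosomal order, that had an entry in RefSeq's GRCh38.p14 promoter table. All are on chromosome 6. Capitals mark the TATA motif TATAA, the CCAAT box and the octamer ATTTGCAT on either strand (on the reverse strand the first reads TTATA, the CCAAT box reads ATTGG, and the octamer reads ATGCAAAT). Where no capitals of a motif appear, these letters were not in the stretch shown.
H1-1 (H1, minus strand): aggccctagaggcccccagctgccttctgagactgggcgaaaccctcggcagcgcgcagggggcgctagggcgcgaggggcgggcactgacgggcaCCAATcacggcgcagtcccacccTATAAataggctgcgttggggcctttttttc
H2AC4 (H2A, minus strand): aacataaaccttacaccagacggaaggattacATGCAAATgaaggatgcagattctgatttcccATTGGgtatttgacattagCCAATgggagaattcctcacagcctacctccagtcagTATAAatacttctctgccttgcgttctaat
H2BC3 (H2B, minus strand): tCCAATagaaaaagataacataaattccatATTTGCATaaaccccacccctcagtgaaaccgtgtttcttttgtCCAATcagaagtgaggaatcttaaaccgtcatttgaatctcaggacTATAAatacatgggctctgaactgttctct
H3C1 (H3, plus strand): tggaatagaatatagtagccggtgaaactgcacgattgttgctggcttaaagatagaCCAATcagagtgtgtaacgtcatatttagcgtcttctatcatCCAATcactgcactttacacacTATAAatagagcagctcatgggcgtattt
H4C2 (H4, minus strand): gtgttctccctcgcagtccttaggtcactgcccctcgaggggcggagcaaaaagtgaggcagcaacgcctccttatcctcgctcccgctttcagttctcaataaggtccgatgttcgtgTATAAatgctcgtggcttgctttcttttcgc

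Of the 53 coding histone genes, 48 were matched in that table, whose entries run from 250 bases before to 50 after the start. In these 300 bases, TATAA was present in 47 of the 48 histone promoters (97.9%), against 21.1% of 27305 promoters of all genes. CCAAT was present in 41 of 48 (85.4%), against 35.7% of all promoters. It was found in every H1, H2A, H2B and H3 promoter matched, but in 3 of 10 H4 promoters. The octamer, the site of OCT1 in H2B promoters, was present in 11 of 14 H2B and 8 of 10 H2A promoters, in 1 of 8 H3 promoters and in none of 6 H1 or 10 H4 promoters, against 1.80% of all promoters. These are letter matches, not measured sites, and their relation to the regions below was not tested.

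Depth, worked back from the peak lists, was 3.07 M reads (M stands for 1e6) in the overexpression FLAG library and 4.38 M in the control FLAG library. It lay between 17.9 M and 25.02 M in the 8 histone libraries and was 20.2 M and 18.8 M in the overexpression and control inputs. The lists had been kept down to an unadjusted p near 0.05. FLAG peaks in the window therefore reached down to 1 read at the summit in overexpression cells, where 239 of 420 peaks had 1 read, and to 2 reads in control cells. For this reason regions with a q of 0.05 or less are described below unless stated otherwise. They had at least 4 reads for FLAG and at least 8 for the histone antibodies. Each input list had 1 peak in the window, with a fold of 2.14 at chr6:26085038-26085243 in overexpression cells and 2.17 at chr6:26768245-26768440 in control cells, and neither reached a q of 0.05. Over all ChIP peaks deposited in the window, at any q, the peak caller's local background had a median of at most 1.30 times the genome average in every list. Its highest value was 3.38 times.

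Regions of H2A.Z and of the acetylation marks were denser in the cluster than over the genome, while those of H3K4me1 were near the genome density in overexpression cells and sparser in control cells. H2A.Zac was found at 67 regions in overexpression cells and 101 in control cells, which is 3.78 and 4.03 times the density over the genome. H3K27ac was found at 53 regions in overexpression cells and 59 in control cells, at 3.55 and 3.44 times the genome density. H2A.Z regions numbered 30 in overexpression cells and 49 in control cells, at 3.40 and 3.00 times. H3K4me1 had 51 regions in overexpression cells, close to the genome density at 0.952 times, and 4 in control cells, at 0.318 times. FLAG had 22 regions in overexpression cells and 19 in control cells, below the genome density in both at 0.759 and 0.444 times. Against the rest of chromosome 6 the FLAG density was 0.979 times in overexpression cells, close to 1, and 0.643 times in control cells.

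**Figure D1:**
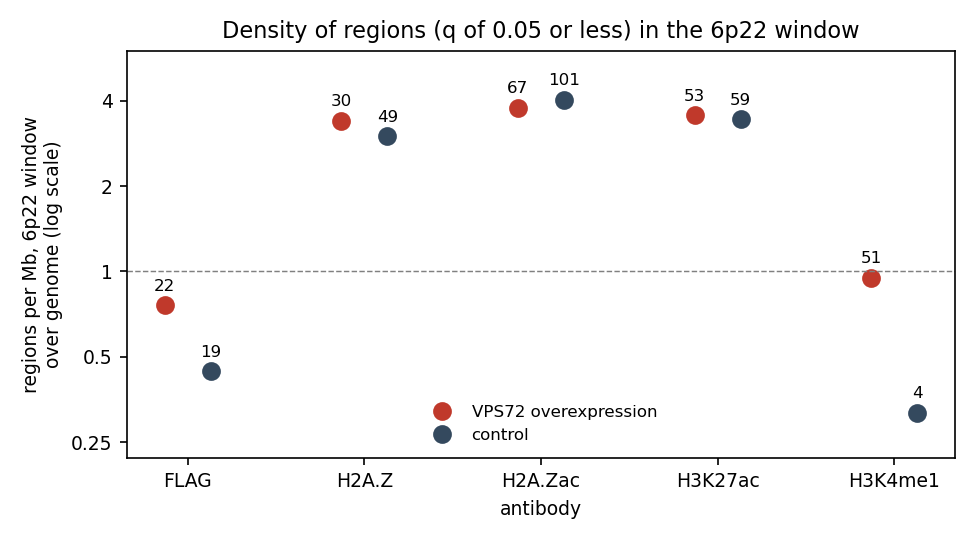
Regions per Mb inside the 6p22 window divided by regions per Mb over chromosomes 1 to 22 and X, on a log scale, for each antibody in VPS72 overexpression (left, red) and control cells (right, dark blue). Each point is 1 library, the number above it counts the regions in the window, and the dashed line marks the genome density; H2A.Z, H2A.Zac and H3K27ac lie at 3.00 to 4.03 times, while FLAG and H3K4me1 lie below 1.

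Among 1612 stretches of 1.9 Mb that tile the genome, few held more acetylated regions than the cluster. More H2A.Zac regions were found in 1.67% of tiles in overexpression cells and 0.806% in control cells. For H3K27ac the share was 1.67% in overexpression cells and 1.49% in control cells. For H2A.Z it was 3.78% in overexpression cells and 3.29% in control cells. In contrast, 45.8% of tiles in overexpression cells and 58.6% in control cells held more H3K4me1 regions. FLAG regions were more numerous in 36.2% of tiles in overexpression cells and 51.7% in control cells. H3K27ac regions covered 65.8 kb of the window in overexpression cells and 83.6 kb in control cells, and H2A.Zac regions 57.9 and 105.6 kb.

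The antibodies were not spread alike along the window. The boundary of the cytogenetic bands in hg19 is at 27 Mb, and this division was chosen after the values had been seen. Regions of all 4 histone marks were denser in 6p22.2, the stretch before it. There H3K27ac had 39 regions in overexpression cells and 42 in control cells, against 14 and 17 in 6p22.1. H2A.Zac had 42 and 65 in 6p22.2, against 25 and 36 in 6p22.1. For H2A.Z the counts were 19 and 28, against 11 and 21. For H3K4me1 they were 41 and 4, against 10 and 0. FLAG was distributed the other way. In overexpression cells 17 of 22 FLAG regions lay in 6p22.1 (77.3%, 95% Wilson interval 56.6 to 89.9%). In control cells 17 of 19 did (89.5%, 68.6 to 97.1%). Per Mb this was 18.9 FLAG regions in 6p22.1 in both conditions. In 6p22.2 it was 5 in overexpression cells and 2 in control cells. The intervals take no account of the choice of the division.

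At a finer scale, H3K27ac was most frequent in the first 200 kb of the window. The bins 26 to 26.1 and 26.1 to 26.2 Mb held 9 and 11 H3K27ac regions in overexpression cells, and 8 and 9 in control cells. H2A.Zac was most frequent at 26.5 to 26.6 Mb, with 10 regions in overexpression cells and 18 in control cells. The same 100 kb held 13 H3K4me1 regions in overexpression cells, the most of any bin, and 2 in control cells, as many as the bin before it. The bin 26.8 to 26.9 Mb held no histone region in overexpression cells, and 1 H2A.Z and 1 H2A.Zac region in control cells. From 27.2 to 27.3 Mb, H2A.Zac and H3K27ac had no region in either condition, while FLAG had 5 in overexpression cells and 3 in control cells. At 27.7 to 27.8 Mb FLAG had 2 regions in overexpression cells and 4 in control cells, beside 6 H2A.Zac regions in overexpression cells and 8 in control cells.

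**Figure D2:**
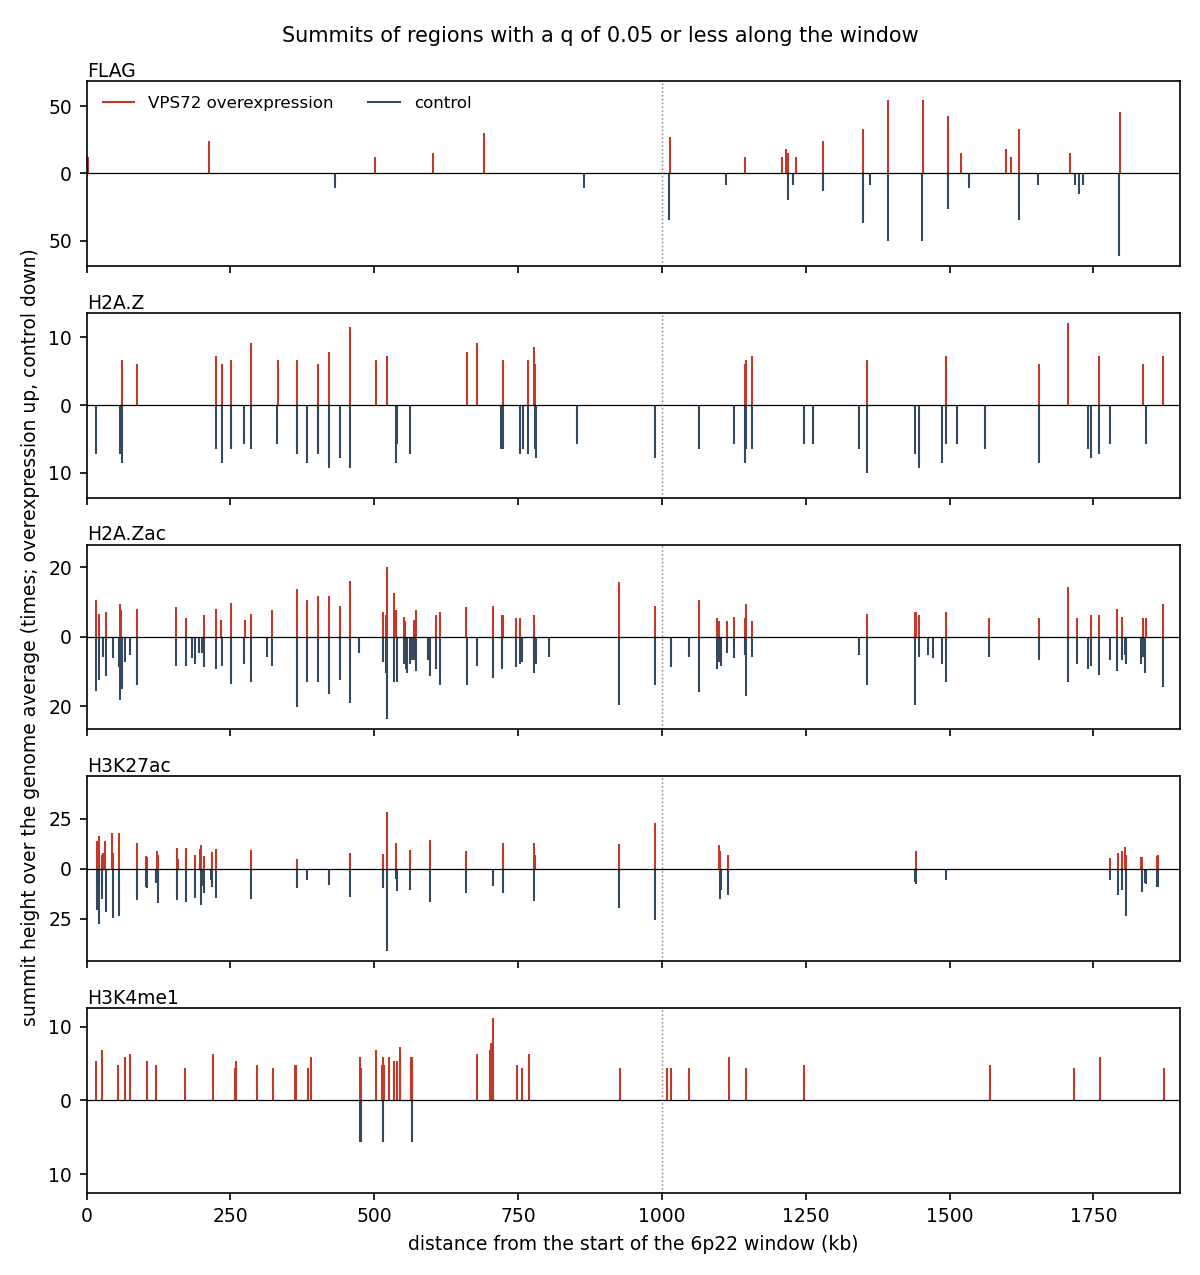
Summits along the window where q was 0.05 or less, by distance from its start in kb, 1 panel per antibody. Each line is 1 region and its length is the summit height over the library's genome average, drawn upwards for VPS72 overexpression and downwards for control cells; the dotted line at 1000 kb is the band boundary, beyond which 17 of 22 and 17 of 19 FLAG regions lie.

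Few of the histone regions of the cluster overlapped a FLAG region, while the shares seen from FLAG were closer to those of the genome. In overexpression cells 1 of 22 FLAG regions overlapped H2A.Z (4.55%, interval 0.807 to 21.8%, genome 5.43%) and 1 of 22 overlapped H3K4me1 (4.55%, genome 7.98%). It was the same FLAG region, chr6:26501855-26502201, with 4 reads. In control cells 0 of 19 overlapped either (upper limit 16.8%, genome 8.31% for H2A.Z and 2.43% for H3K4me1). FLAG regions overlapped no H2A.Zac region, in 0 of 22 cases in overexpression cells (Wilson upper limit 14.9%) and 0 of 19 in control cells (upper limit 16.8%). Over the genome 7.81% of FLAG regions in overexpression cells and 10.4% in control cells overlapped one. Seen from the marks, 1 of 30 H2A.Z regions in overexpression cells overlapped FLAG (3.33%, interval 0.591 to 16.7%), below the 18.4% over the genome. In control cells 0 of 49 did (upper limit 7.27%), against 21.9% over the genome. For H2A.Zac, FLAG overlapped 0 of 67 regions in overexpression cells (upper limit 5.42%, genome 13.4%) and 0 of 101 in control cells (upper limit 3.66%, genome 17.5%). For H3K27ac it overlapped 0 of 53 in overexpression cells (upper limit 6.76%, genome 9.31%) and 0 of 59 in control cells (upper limit 6.11%, genome 13.6%).

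The genome shares for H2A.Z, H2A.Zac and H3K27ac lay above the counting intervals of the window, and those for FLAG regions lay inside them, but regions of 1 library are no replicates and the difference was not tested. When every deposited FLAG peak was allowed, down to single reads, 4 of 30 H2A.Z regions in overexpression cells overlapped one (13.3%, genome 34.6%), and 2 of 49 in control cells (4.08%, genome 32.4%). For H2A.Zac the counts were then 7 of 67 in overexpression cells (10.4%, genome 29.7%) and 5 of 101 in control cells (4.95%, genome 27.6%). Joined into places, 21 of 22 FLAG places in overexpression cells carried no histone mark (95.5%, interval 78.2 to 99.2%, genome 84.9%), and 19 of 19 in control cells (100%, lower limit 83.2%, genome 86.9%), so that the genome share lay inside both intervals. The median distance from a FLAG region to the nearest H2A.Zac region was 19.9 kb in overexpression cells and 5.57 kb in control cells, against 22.9 and 16.2 kb over the genome. Within 2 kb of H2A.Zac there were 3 of 22 FLAG regions in overexpression cells (13.6%, interval 4.75 to 33.3%), as over the genome (13.5%). In control cells there were 2 of 19 (10.5%, interval 2.94 to 31.4%, genome 17.9%), and the genome share lay inside the interval. The FLAG libraries were the shallowest of the series, and the part of depth in these shares was not tested. In the window FLAG regions stood at 0.759 times the genome density in overexpression cells and 0.444 times in control cells. Regions of H2A.Z, H2A.Zac and H3K27ac stood at 3.00 to 4.03 times. These densities move with the shares, and their part in them was not tested.

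**Figure D3:**
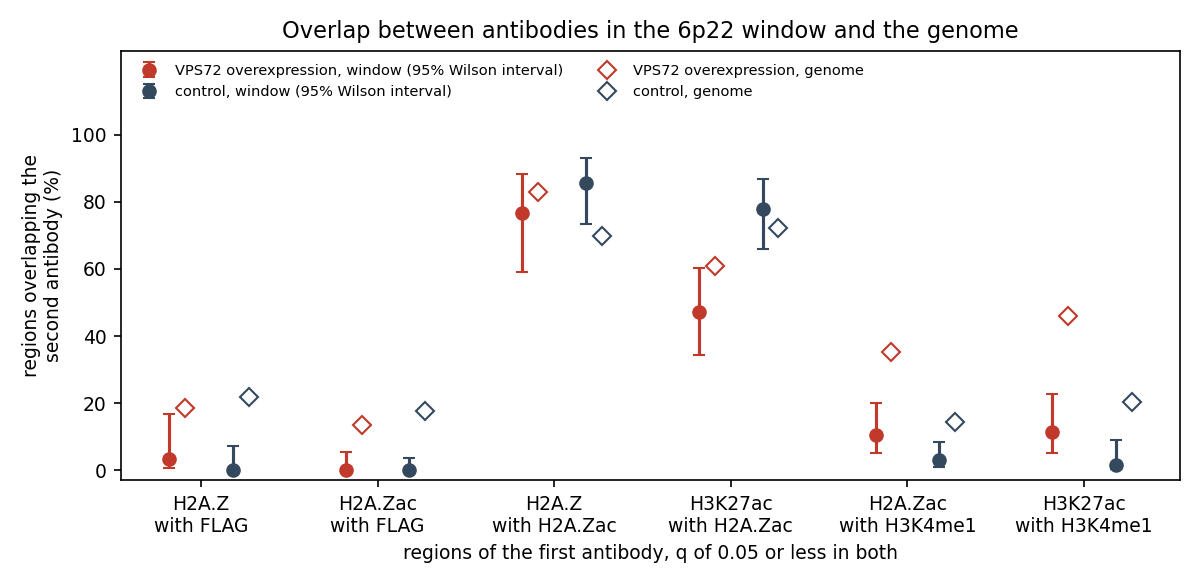
Share of the regions of one antibody that overlap a region of a second antibody by at least 1 base, both with a q of 0.05 or less. Filled points are the 6p22 window with 95% Wilson intervals and open diamonds are the whole genome. Red is VPS72 overexpression and dark blue is control cells. The share of H2A.Z and H2A.Zac regions that overlap FLAG lies below the genome value in both conditions. The share of H2A.Zac and H3K27ac regions that overlap H3K4me1 lies below it in overexpression cells. The control window held only 4 H3K4me1 regions, so nothing is drawn from the control shares with H3K4me1.

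The strongest FLAG regions were found in both conditions. The FLAG region with the lowest q in overexpression cells, chr6:27392454-27393224, had a summit of 18 reads there and 23 reads in control cells. Relative to each library's genome average this was 54.6 times in overexpression cells and 50.4 times in control cells, and the authors' fold was 11.3 and 11.6. Another region, chr6:27452202-27454157, had heights of 54.6 times in overexpression cells and 50.4 times in control cells, with 18 and 23 reads. A weaker one, chr6:27497508-27498088, had 42.5 times in overexpression cells (14 reads) and 26.3 times in control cells. The strongest FLAG region in control cells, chr6:27794367-27795760, stood lower in overexpression cells, at 45.5 times against 61.4 times in control cells (28 reads), with folds of 9.70 and 17.8. All of these lay in 6p22.1. Weaker sites were seen in a single condition. The strongest FLAG region without a deposited control peak, chr6:27215525-27215968, had 6 reads in overexpression cells, and the strongest without a deposited overexpression peak, chr6:27725100-27725560, had 7 reads in control cells.

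Compared between conditions, FLAG in the window gave 16 of 22 overexpression regions with a control peak (72.7%) and 13 of 19 control regions with an overexpression peak (68.4%). The shares without a partner, 6 of 22 and 6 of 19, stood beside genome backgrounds of 26% and 31.6%. Among the 16 overexpression regions found in both, the FLAG summit was higher with overexpression in 11, where the genome background was 59.1%. Among the 13 control regions it was higher in 6, where the background was 36.5%. The median height ratio, overexpression over control, was 1.50 over regions selected in the overexpression list (95% interval of the median 0.896 to 2.31, genome 1.11). Over regions selected in the control list it was 0.952 (0.742 to 1.08, genome 0.865). The 2 selections thus fell on either side of 1, and no direction is given for FLAG. The number of FLAG regions, overexpression over control, was 1.16 in the window and 0.677 over the genome.

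H2A.Z regions were fewer with overexpression, 30 against 49 in control cells, a ratio of 0.612 beside 0.541 over the genome. Of the overexpression regions 25 of 30 had a control peak, so 5 had none, where the genome background was 10.3%. Of the control regions 36 of 49 had an overexpression peak (73.5%, interval 59.7 to 83.8%, genome 60.5%). The 13 without a partner stood beside a background of 39.5%. H2A.Z summits were higher with overexpression at 16 of 25 regions from the overexpression list (background 49.3%) and at 8 of 36 from the control list (background 28.6%). The median ratio was 1.14 in the overexpression selection and 0.852 in the control selection, again on either side of 1.

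The strongest H2A.Z region of the window, chr6:27705725-27706669, had a height of 12.2 times in overexpression cells (20 reads) and 7.16 times in control cells, a ratio of 1.70. The next, chr6:26457606-26458403, had 11.6 times in overexpression cells (19 reads) and 9.30 times in control cells (13 reads). At chr6:26421292-26422394 the order was the reverse, with 7.92 times in overexpression cells and 9.30 times in control cells. H2A.Z at chr6:27446704-27447388 had no deposited peak in overexpression cells and reached 9.30 times in control cells (13 reads). H2A.Z at chr6:26223715-26224152 reached 7.31 times in overexpression cells (12 reads) with no overlapping control peak, although the joined place around it, chr6:26223623-26225080, held a control H2A.Z peak of 6.44 times. These H2A.Z summits rest on 9 to 20 reads, so the counting error of each height is large.

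Acetylated H2A.Z was lower with VPS72 overexpression at nearly all of its regions in the cluster. All 67 H2A.Zac regions of overexpression cells had a control peak, so 0 of 67 had none (background 6.65%). Of the 101 control regions 88 had an overexpression peak (87.1%, interval 79.2 to 92.3%, genome 74.0%), and 13 had none (background 26%). The summit was higher with overexpression at 4 of 67 regions (background 5.99%) and at 4 of 88 (background 4.48%). The median ratio was 0.695 over the overexpression list (0.643 to 0.753) and 0.676 over the control list (0.632 to 0.715). The same medians over the genome were 0.652 and 0.652, so the lower heights were shared with the genome as a whole. Heights are relative to each library's own genome average, no spike-in scales one library to the other, and a difference in ChIP efficiency between libraries and a difference in acetylation cannot be told apart.

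The strongest H2A.Zac region in overexpression cells, chr6:26521597-26522659, had 20.1 times the genome average there (45 reads) and 23.7 times in control cells (46 reads). The region chr6:26923892-26925490 had 15.7 times in overexpression cells (35 reads) and 19.6 times in control cells (38 reads), a ratio of 0.800. At chr6:26457542-26458829 the heights were 16.1 times in overexpression cells (36 reads) and 19.1 times in control cells (37 reads). The ratio was lower at another of the strongest control regions. At chr6:27440022-27441848 H2A.Zac was 7.16 times in overexpression cells and 19.6 times in control cells (38 reads), a ratio of 0.366, with folds of 4.97 and 12.7. The strongest control region with no deposited overexpression peak, chr6:27740145-27740962, had 18 reads and 9.28 times the average.

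H3K27ac, the acetylation of histone H3 at active promoters and enhancers, was also lower with overexpression. All 53 overexpression regions had a control peak, so 0 of 53 had none (background 9.51%). Of the 59 control regions 52 had an overexpression peak (88.1%, genome 84.5%), and 7 had none (background 15.5%). The summit was higher with overexpression at 4 of 53 regions of the overexpression list (background 14.3%) and at 7 of 52 of the control list (background 12.7%). The median ratio was 0.655 in the overexpression selection (0.587 to 0.721), where the genome median was 0.757. In the control selection it was 0.719 (0.642 to 0.779), where the genome median of 0.748 lay inside the interval.

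The tallest histone summit of the window was an H3K27ac region at chr6:26520602-26523145. It reached 28.4 times the average in overexpression cells (61 reads) and 41.1 times in control cells (77 reads), and overlapped the strongest H2A.Zac region of overexpression cells. The authors' fold was in the other order there, 18.7 in overexpression cells and 17.3 in control cells, where the fold is taken over a local background. At chr6:26020650-26022469 H3K27ac was 16.3 times in overexpression cells (35 reads) and 27.8 times in control cells (52 reads), a ratio of 0.587. At chr6:26987121-26988164 it was 22.9 times in overexpression cells (49 reads) and 25.7 times in control cells (48 reads). At chr6:26044144-26045377 it was 17.7 times in overexpression cells (38 reads) and 24.6 times in control cells. H3K27ac at chr6:27102304-27102817 had no deposited peak in overexpression cells and 10.7 times in control cells (20 reads).

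**Figure D4:**
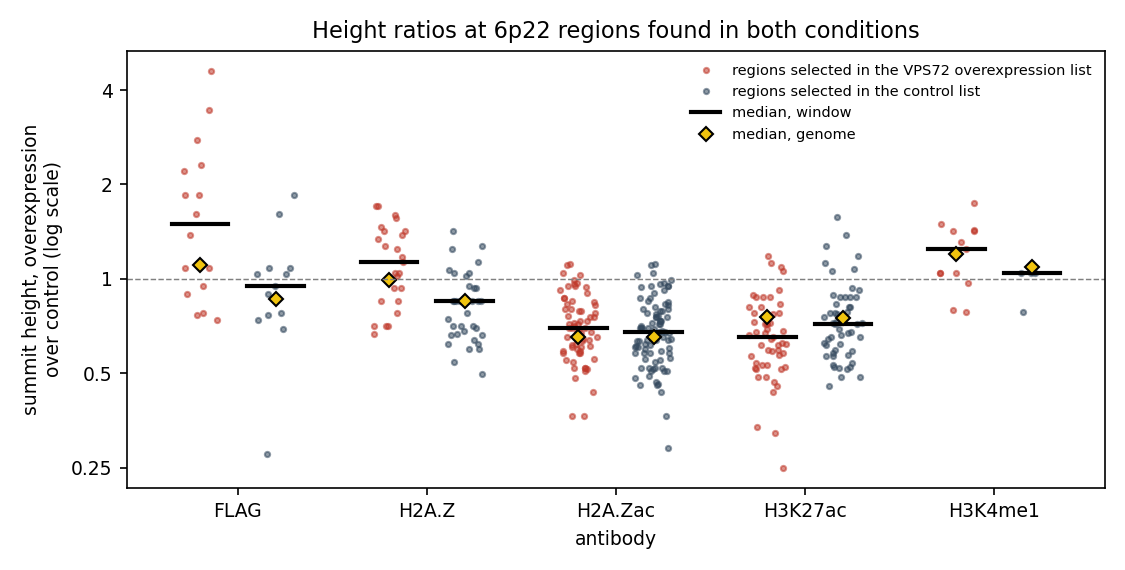
Summit height in VPS72 overexpression over control cells, on a log scale, at each region of the 6p22 window found in both conditions. Red points (left) were selected in the overexpression list and dark blue points (right) in the control list; black bars are the window medians and diamonds the genome medians. H2A.Zac and H3K27ac medians lie between 0.655 and 0.719, while FLAG and H2A.Z medians fall on either side of 1 with the selecting list.

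For H3K4me1, typical of enhancers, the ratio of region numbers was the largest of the antibodies at the q limit of 0.05, though not under every limit. The window had 51 regions in overexpression cells and 4 in control cells, a ratio of 12.75, beside 4.26 over the genome. The ratio depended on the limit. Over all deposited peaks it was 2.12 (104 in overexpression cells and 49 in control cells, genome 1.25). Counting summits at or above 5 times the average gave 1.87 (28 in overexpression cells and 15 in control cells, genome 1.11). Under those 2 limits the ratio for FLAG was larger, 4.42 (genome 3.00) and 2.08 (genome 1.51). The height limit fell on unlike read numbers in the FLAG libraries. A summit of 2 reads stood at 6.07 times the average in overexpression cells and 4.38 times in control cells. At a q of 0.001 or less there were 15 regions in overexpression cells and 0 in control cells. Over the genome there were 32899 and 3320 at that limit, a ratio of 9.91. The 4 control regions each had 10 reads at the summit.

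Of the 51 H3K4me1 regions of overexpression cells, 13 had a control peak (25.5%, interval 15.5 to 38.9%), below the 55.2% over the genome. The other 38 had none, where the genome background was 44.8%. All 4 control regions had an overexpression peak, so 0 of 4 had none (background 10.3%). The summit was higher with overexpression at 10 of 13 regions of the overexpression list (background 76.4%, median ratio 1.25, genome 1.20) and at 3 of 4 of the control list (background 62.3%, median ratio 1.05, genome 1.09). The region heights of overexpression cells were modest, with a median of 5.35 times the genome average in the window and 5.84 times over the genome.

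The strongest H3K4me1 region, chr6:26705040-26706384, had 11.2 times the average in overexpression cells (23 reads) and 7.81 times in control cells, with folds of 5.60 and 3.01. H3K4me1 at chr6:26543929-26544692 had 7.30 times in overexpression cells (15 reads) and no deposited control peak. The same held at chr6:26767475-26768231, with 6.33 times and 13 reads. Of the control regions, chr6:26475042-26475514 had 5.84 times in overexpression cells and 5.58 times in control cells, and chr6:26476340-26476868 had 4.38 times in overexpression cells and 5.58 times in control cells.

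Acetylated regions of the cluster carried H3K4me1 less often than those of the genome in overexpression cells. Of the H3K27ac regions 6 of 53 overlapped H3K4me1 in overexpression cells (11.3%, interval 5.29 to 22.6%, genome 46.0%) and 1 of 59 in control cells (1.69%, 0.300 to 8.996%, genome 20.2%). Of the H2A.Zac regions 7 of 67 did in overexpression cells (10.4%, 5.15 to 20.03%, genome 35.2%) and 3 of 101 in control cells (2.97%, 1.02 to 8.37%, genome 14.4%). The control window held only 4 H3K4me1 regions, so the control shares could hardly be larger and nothing is drawn from them. Seen from H3K4me1, 3 of these 4 overlapped H2A.Zac (75%, 30.1 to 95.4%, genome 29.7%) and 1 overlapped H3K27ac (25%, genome 30.5%). Of the 51 H3K4me1 regions of overexpression cells, 8 overlapped an H2A.Zac region of the same cells (15.7%, genome 12.6%). A larger number, 35, lay within 2 kb of a control H2A.Zac region (68.6%, 54.97 to 79.7%, genome 39.7%), and 20 overlapped one (39.2%, genome 23.5%). Within 2 kb of an H2A.Zac region of overexpression cells there were 21 (41.2%, 28.8 to 54.8%, genome 25.6%). For H3K27ac the shares within 2 kb were closer to the genome, 35.3% in overexpression cells (genome 29.5%) and 41.2% of the same regions against control H3K27ac (genome 34.9%). None of these differences from the genome was tested. Since the window held 3.78 and 4.03 times the genome density of H2A.Zac, the density of targets moves with these shares, and its part in them was not tested.

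Joined across the 10 lists, overlapping regions of the window formed 169 places. A histone mark was present at 115 of them in overexpression cells and 114 in control cells. The commonest combination in overexpression cells was H3K4me1 alone, at 31 places against 1 in control cells. This was 26.96% of marked places in overexpression cells and 0.877% in control cells, and both lay below the genome shares of 64.3% and 14.8%. The lowest H3K4me1 region in the window stood at 4.38 times the average in overexpression cells and 5.58 times in control cells. The 2 place counts thus rest on unlike heights at the same q limit. H2A.Zac with H3K27ac and without H3K4me1, with or without H2A.Z, was found at 20 places in overexpression cells (17.4%, interval 11.6 to 25.3%, genome 7.42%) and at 41 in control cells (36.0%, 27.7 to 45.1%, genome 23.8%). H2A.Z was mostly found together with its acetylated form. Of the H2A.Z regions 23 of 30 overlapped H2A.Zac in overexpression cells (76.7%, genome 82.8%) and 42 of 49 in control cells (85.7%, genome 69.9%). All 4 histone marks met at 1 of 115 marked places in overexpression cells (genome 2976 of 96091). In control cells they met at 0 of 114 (genome 1592 of 59032), where the window had only 4 H3K4me1 regions. These counts are too small to set the window apart from the genome.

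The place shared by most lists, chr6:26364088-26366163, reached a q of 0.05 in 7 of the 10. H2A.Z there was 6.70 times the average in overexpression cells and 7.16 times in control cells. H2A.Zac was 13.9 times in overexpression cells and 20.1 times in control cells, and H3K27ac was 4.66 and 9.62 times. H3K4me1 was 4.87 times in overexpression cells with no deposited control peak, and FLAG had a peak of 1 read in overexpression cells. Among the places marked in 6 lists, chr6:26053902-26057648 had the highest summed −log10 q. Its H3K27ac summit was 17.7 times in overexpression cells and 23.5 times in control cells, and its H2A.Zac summit 9.40 and 18.0 times. The next of those marked in 6 lists, chr6:26457434-26458897, carried no H3K4me1 or FLAG peak. H2A.Z there was higher in overexpression cells, at 11.6 against 9.30 times in control cells, while H2A.Zac was lower, at 16.1 against 19.1 times, as was H3K27ac, at 7.93 against 13.9 times.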

How the data were processed

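Per the submitters' processing notes, reads were checked with FastQC, trimmed with Trimmomatic, aligned with BWA and called with MACS2. No versions are given there, and both hg19 and hg38 are named. Of 1552170 peaks 0 lay past an hg19 chromosome end, and positions were read as hg19. The authors deposited for each peak a score, a fold (a ratio of pileup to local background), a −log10 p, a −log10 q and the offset of the summit. The score was not used. Lists were called per library, not on pooled samples.

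Groups follow the sample titles. Genotype labels of the overexpression ChIP libraries name a running series of other gene names, and peak names of the control H3K4me1 list spell another mark.

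From the deposited fold and −log10 p, the reads at each summit were worked back as the whole number that gives both (99.999% or more of peaks in every ChIP list). Height is these reads times a scale fitted to each list, over the library's genome average, the commonest background value in its list. The scale was 1 for both FLAG lists and control H2A.Z, and lay between 0.809 and 0.991 in the other ChIP lists. Depth assumed a genome of 2.7 Gb. The step was checked on simulated peaks. Regions overlapping by at least 1 base were matched, and the highest peak was taken where several overlapped. Places are joined overlapping regions. Shares have 95% Wilson intervals. The 95% intervals of median height ratios come from the ranked ratios of the regions, taken as independent. Regions named are, per antibody, the 3 with the highest −log10 q in each condition and the strongest of each condition with no deposited peak in the other, and the 3 places marked in most lists. The window, lists and rules were chosen with earlier results of these data known. Python 3.11.15, pandas 2.3.3, scipy 1.17.1 and R 4.3.3 with circlize 0.4.16 (hg19 chromosome lengths and bands) were used.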

Additional observations from a re-analysis of the deposited data

How the results depend on the processing

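Of 103 values recomputed under other limits, matches and backgrounds, 66 stayed in place, 32 moved and 5 changed sides, and the cause was not tested. A count or density was said to move when it changed by a factor of more than 1.5. Matching by 50% of the shorter region, any overlap with the window and the rest of chromosome 6 as background moved none. Against the rest of chromosome 6, FLAG density nonetheless rose to 0.979 in overexpression cells, close to 1, and to 0.643 in control cells. With all deposited peaks, the count ratios became 4.42 for FLAG (genome 3.00) and 2.12 for H3K4me1 (genome 1.25). The density over the genome then became 1.22 for overexpression FLAG, on the other side of 1, 0.825 for control FLAG, 1.46 for control H2A.Z, 1.59 and 2.08 for overexpression and control H3K27ac, 1.07 for overexpression H3K4me1, also on the other side of 1, and 0.629 for control H3K4me1. Places with at least 2 histone marks became 88 in overexpression cells and 111 in control cells, those with H3K4me1 and acetylation 36 and 14, and those with H2A.Zac and H3K27ac 42 in overexpression cells. With a height of at least 5 times the average, the count ratios became 2.08 for FLAG (genome 1.51) and 1.87 for H3K4me1 (genome 1.11). A stricter q limit of 0.001 made the H2A.Z count ratio 0.368, below the genome ratio of 0.668 at that limit. With it, densities became 1.03 for overexpression FLAG, 1.69 for overexpression H2A.Z and 0 for control H3K4me1. Requiring a q of 0.05 in the other condition left 40.9% of overexpression FLAG regions found in both, 56.7% and 34.7% of overexpression and control H2A.Z, 63.4% of control H2A.Zac and 7.84% of overexpression H3K4me1 regions. Selecting at a q of 0.001 gave 91.7% and 100% for FLAG, 89.5% for control H2A.Z, 96.1% for control H2A.Zac, 96.1% for control H3K27ac and 40% for overexpression H3K4me1. Selecting regions in the overexpression list turned the height ratio to 1.50 for FLAG and 1.14 for H2A.Z, and gave 1.25 for H3K4me1. Ratios of the deposited fold were 0.904 for H2A.Z, 0.743 for H2A.Zac and 1.10 for H3K4me1.

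No paired analysis was possible because each group had 1 library. The FLAG libraries, with 3.07 M and 4.38 M reads, were the shallowest, and 4 reads made a FLAG region with a q of 0.05 or less.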
